A study of Homo sapiens with 4 samples.

Results

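Shallow barcodes were the droplet barcodes that carried at least 500 and under 2000 UMIs (unique molecular identifiers, each standing for 1 captured transcript) in single-cell RNA sequencing of HCEC 1CT cells. They were chosen by their measured UMI total, with at least 200 genes and under 5% of UMIs from the mitochondrially encoded (MT-) genes required, and this rule kept 2125 shallow barcodes among 5982 that met the gene, UMI and MT limits and 9205 deposited. The side they were set against was formed by the 3187 barcodes of 10000 or more UMIs, called deep, and the 670 barcodes in between, called intermediate, belonged to neither side. Depth, the number of genes and the MT share were therefore fixed by the selection and are given as a description.

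HCEC 1CT is a line of human colonic epithelial cells that was made to divide without limit by telomerase (TERT) and the cell cycle kinase CDK4, so all 4 libraries share both transgenes. Cells carried either a scrambled control short hairpin RNA (shScr) or one against APC (shAPC), the scaffold of the complex that destroys beta-catenin, and were taken at 3 or 7 days after transduction. The labels gave 1 library per hairpin and day, 4 in all, and wherever 4 values are listed they stand in the order shScr and then shAPC at day 3, followed by shScr and then shAPC at day 7. No group had a replicate, so the 4 libraries served as 4 blocks in which shallow and deep barcodes were paired, and each p-value measures the spread of that difference between these 4 libraries.

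In a droplet experiment every barcode labels the RNA of 1 droplet, which may hold a whole cell, a damaged cell, a nucleus, a cell fragment or RNA set free by other cells. These sources can carry different transcript classes: MALAT1 and NEAT1 are long noncoding RNAs kept in the nucleus, messages of secreted and membrane proteins are translated on the endoplasmic reticulum (ER), ribosomal protein messages are mostly cytosolic, and a few messages, RAB13 among them, are carried to the edges of cell protrusions. A UMI total alone does not tell these sources from a small or weakly captured whole cell.

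The number of shallow barcodes differed widely between libraries. There were 217, 115, 1402 and 391, the most in shScr day 7, which made up 19.4%, 14.6%, 53.9% and 26.5% of the barcodes within the limits. They held few of the UMIs, 0.549%, 0.357%, 3.36% and 1.22% in the same order. Their median depth was 923, 1005, 612 and 767 UMIs, against 51580, 57383.5, 29008 and 28156 UMIs in the deep barcodes. The median MT share was 2.04%, 1.71%, 2.15% and 2.35% in shallow and 3.51%, 3.73%, 3.81% and 4.17% in deep barcodes, and the MT limit had removed 43.9%, 45.2%, 20.7% and 35.6% of the barcodes in the shallow depth range. Few barcodes stood near the upper limit of 2000 UMIs: within 50 UMIs of it, 4, 4, 5 and 3 lay just inside and 3, 1, 3 and 2 just outside.

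Some barcodes occurred in more than 1 library. The day 3 libraries shared 23 barcodes, or 14.9 in every 1000000 possible pairs, while the other pairs of libraries shared 0.629 to 2.26 in 1000000. Of these 23, 18 were shallow in shScr day 3 and deep in shAPC day 3, and in all 45 shallow barcodes (2.12%) were seen in another library. As a group, the shared shallow barcodes of shScr day 3 held the interferon-stimulated genes at 5108 CPM (95% counting interval 3997 to 6433), against 2639 CPM (2421 to 2872) in its unshared shallow barcodes and 8087 CPM in those of shAPC day 3. CPM is the count per 1000000 UMIs, here of the UMIs summed over one side of one library, and the intervals cover counting error only.

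The identity of the line could be read from the shallow barcodes only in part. APC had 1, 2, 13 and 3 UMIs in the shallow barcodes, too few to check the knockdown there. In the deep barcodes APC stood at 16.1, 5.56, 19.5 and 6.66 CPM, lower in both shAPC libraries than in both shScr libraries. Epithelial markers EPCAM, CDH1, ESRP1 and CLDN3 had no UMI in any shallow sum, so up to 3 UMIs per library remain possible. In the deep sums these genes had only 0 to 3 UMIs per library as well. KRT8, KRT18, KRT19, CLDN4, CLDN7, TJP1 and OCLN, also on the epithelial list, had between 0 and 33 shallow UMIs per library. KRT7, a simple epithelial keratin, had 40, 19, 116 and 33. Of the 12 mesenchymal genes listed, VIM, FN1, COL1A1 and COL1A2 were the most abundant on both sides. The others were scarcer. CDH2 had 1, 0, 5 and 4 shallow UMIs, TWIST1 had 6, 4, 16 and 9, and PDGFRB had 4, 3, 37 and 22. COL3A1, S100A4, SNAI2, ZEB1 and ZEB2 had between 2 and 89 per library. Of 16 markers of blood, endothelial and other cell types, 13 were at 0 in every shallow sum. The exceptions were the lysosomal gene CD68, with 5, 7, 29 and 15 UMIs, and PPBP with 3 and HBB with 1 UMI in shScr day 7. Each shallow profile was closest to the deep profile of its own library, with Pearson's r across genes of 0.904, 0.878, 0.912 and 0.898, a description over genes that share libraries and depth.

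Across genes the shallow barcodes carried relatively more of many moderately abundant messages and relatively less of the ribosomal protein messages. Of 2169 genes with a mean of at least 50 CPM, 924 were higher in shallow barcodes (42.6%) and 281 were lower (13%) by edgeR's quasi-likelihood test with Benjamini-Hochberg adjustment at 0.05. Among these calls 320 were higher by at least 2-fold and 19 lower by at least 2-fold, and 1110 of the 1205 called genes had the same direction in all 4 libraries. The split between directions depended on scaling, because the sides differ in a few very abundant classes. The median log2 ratio of all genes tested was 0.34, and it was 0.02 with TMM factors, under which 553 genes were higher and 575 lower, so that the share of higher calls was 49.0% rather than 76.7%. Ratios below are relative to total UMIs, and 0.34 is the level that a gene at the median had.

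**Figure D1:**
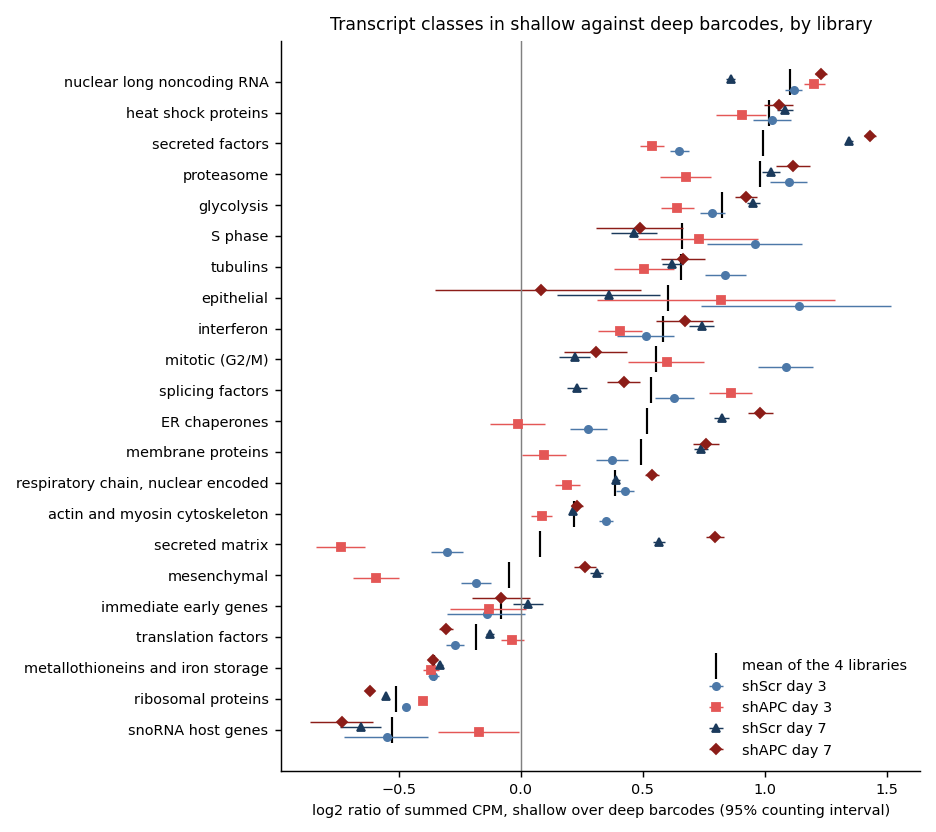
Log2 ratio of summed CPM (shallow over deep) for each transcript class (vertical axis); each symbol is a library with its 95% counting interval and the black tick is the mean of the 4 libraries. Proteasome and heat shock classes lie to the right in all 4 libraries, ribosomal proteins lie between -0.62 and -0.40, and secreted matrix lies below 0 in both day 3 libraries and above 0 in both day 7 libraries.

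The ribosomal protein messages, which encode the structural proteins of the ribosome, were the largest class of which the shallow barcodes carried less. They made up 25.6%, 23.0%, 24.5% and 24.7% of shallow UMIs, against 35.4%, 30.4%, 36.0% and 37.9% of deep UMIs. The log2 ratio of the summed class was -0.51 ± 0.09 (SD, n = 4 libraries), and the sides did not overlap. Of 81 members tested 69 fell and none rose. RPS2 stood at 5978, 5447, 6635 and 6960 CPM in shallow and 10096, 8549, 12227 and 12333 CPM in deep barcodes, a log2 change of -0.78 (SE 0.06, edgeR adjusted p = 0.00019). Among called genes of at least 200 CPM with the same direction in all 4 libraries, RPS12, RPL37A, RPS28 and RPS29 were also in the 10 lowest, at -0.85 to -0.78. In single barcodes the shift was in the same direction. No shallow barcode exceeded the 99th percentile of its library's deep barcodes in ribosomal share, whereas 12%, 18.3%, 18.6% and 29.2% lay below their 1st percentile.

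Other messages of the translation machinery and the snoRNA host genes had fewer calls. TPT1, a translationally controlled growth protein, fell by 0.79 on the log2 scale (edgeR adjusted p = 0.00047), and EEF1A1, the elongation factor, fell by 0.33 (edgeR adjusted p = 0.0087, and by 0.20 without the enriched barcodes described below). Among 37 translation genes 8 rose and 8 fell, where 42.6% of all genes rose and 13% fell. With TMM factors 7 rose and 15 fell. Of 7 snoRNA host genes, whose introns give rise to small nucleolar RNAs, 3 fell and none rose, namely ZFAS1 (-0.72), SNHG8 (-0.54) and SNHG19 (-0.92). The metallothionein and iron storage class, 6.36% to 7.59% of shallow and 8.21% to 9.75% of deep UMIs, had 4 of 5 members lower and none higher, among them FTL, the ferritin light chain (-0.52, edgeR adjusted p = 0.0006), and MT2A (-0.23, edgeR adjusted p = 0.0064). MT2A lost its call without the enriched barcodes (-0.088, edgeR adjusted p = 0.19).

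Among called genes of at least 200 CPM with the same direction in all 4 libraries, PPP1R14B and BRI3 had the lowest ratios outside the ribosome. BRI3, a small lysosomal membrane protein, had 325, 240, 335 and 248 CPM in shallow and 815, 643, 946 and 672 CPM in deep barcodes, with no overlap of the sides (log2 change -1.42, SE 0.11, edgeR adjusted p = 0.00019). PPP1R14B, an inhibitor of a protein phosphatase, had 179, 136, 106 and 115 CPM against 309, 336, 414 and 365 CPM (log2 change -1.48, SE 0.20, edgeR adjusted p = 0.00082). ZFP36L1, a protein that binds AU-rich messages and promotes their decay, changed by -0.87 (edgeR adjusted p = 0.0013).

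Nuclear long noncoding RNA was higher in the shallow sums of every library, and the rise was carried by MALAT1. The class took 3.31%, 3.46%, 2.34% and 4.13% of shallow UMIs, against 1.53%, 1.50%, 1.29% and 1.76% of deep UMIs, a log2 ratio of 1.10 ± 0.17 (SD, n = 4 libraries). MALAT1 stood at 29819, 29816, 21105 and 35532 CPM in shallow and at 11501, 11391, 10071 and 13797 CPM in deep barcodes, so that every shallow value lay above every deep value (log2 change 1.30, SE 0.06, edgeR adjusted p = 4e-05). MEG3, an imprinted noncoding RNA, rose by 0.62 (SE 0.15, edgeR adjusted p = 0.0078). NEAT1, the scaffold of nuclear paraspeckles, did not pass the test, with 2620, 4037, 1690 and 4501 CPM against 3272, 3153, 2252 and 3107 CPM (edgeR adjusted p = 0.86). Of the 3 members of the class tested, 2 rose and none fell.

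This rise rested on a minority of barcodes. In 16, 10, 67 and 44 shallow barcodes (7.37%, 8.70%, 4.78% and 11.3%) MALAT1 made up at least 5% of the UMIs, and these held 83.2%, 94.1%, 55.0% and 79.3% of all shallow MALAT1 UMIs. The line of 5% was set after the values were seen and marks a range, not a cell type, and 2, 0, 23 and 10 barcodes lay within 20% of it. Among deep barcodes 7, 2, 2 and 1 reached it. The highest MALAT1 share in a shallow barcode was 52.4%, 42.3%, 41.6% and 46.1%, whereas the median shallow barcode had 0.430%, 0.151%, 0.945% and 0.795%, below the deep median of 0.872%, 0.967% and 1.29% in 3 libraries and above 0.906% in shScr day 7. In the MALAT1-rich barcodes nuclear long noncoding RNA made up 30.7%, 35.0%, 18.9% and 23.6% of UMIs and ribosomal proteins 11.0%, 6.70%, 15.7% and 13.5%. NEAT1 was at 23544, 40827, 15986 and 25208 CPM there, against 609, 345, 701 and 1501 CPM in the shallow barcodes outside all 3 enriched groups described here, and MEG3, N4BP2L2 and KCNQ1OT1 were also among the 12 genes that set these barcodes apart most evenly. MALAT1 chose the group, so these values are a description.

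Without the MALAT1-rich barcodes, and the RAB13-rich and secreted-rich ones described below, the class ratio was -1.16. The MALAT1 change was -0.92 and all 3 tested members were lower. Enriched barcodes were left out of the shallow side only. MALAT1 chose part of them, so a lower MALAT1 level was built into this comparison, and these values are a description. In the remaining 154, 79, 1143 and 238 shallow barcodes nuclear long noncoding RNA made up 0.66%, 0.24%, 1.15% and 1.13% of UMIs. The class ratio was also 0.18 for shallow barcodes of 500 to under 1000 UMIs and 1.66 for those of 1000 to under 2000 UMIs. It was 0.73 without the MT limit. The MT-encoded share of the MALAT1-rich barcodes was 1.74%, 0.97%, 1.75% and 1.80%, below the median of the deep barcodes.

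**Figure D2:**
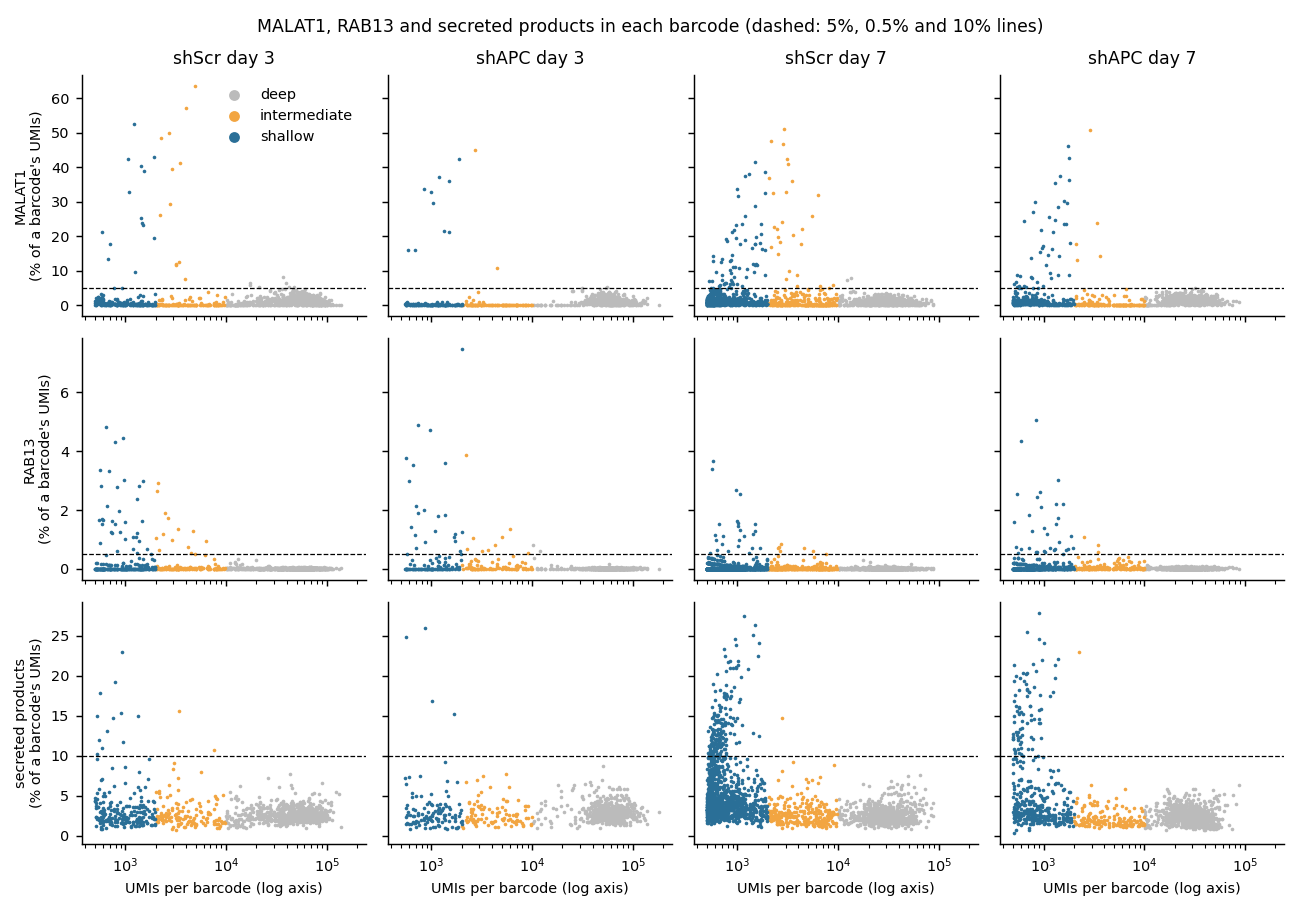
Share of each barcode's UMIs from MALAT1 (top), RAB13 (middle) and secreted products (bottom, matrix and factors together), against its UMI total on a log axis, in 1 column per library; each point is a barcode and dashed lines mark 5%, 0.5% and 10%. Barcodes far above the lines are mostly shallow or intermediate, and the deep barcodes form a narrow band below them.

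RAB13 had the highest ratio of the genes named by rank, and it was highest at day 3. RAB13, a small GTPase of vesicle traffic, stood at 3096, 5167, 527 and 1775 CPM in the shallow barcodes, and at 179, 178, 192 and 241 CPM in the deep barcodes. All 4 shallow values exceeded all deep values, and the ratio was largest at day 3 (log2 ratios 4.07, 4.82, 1.43 and 2.86). The fitted log2 change was 3.35 (SE 0.51, edgeR adjusted p = 0.0012). At the deep level a barcode of 2000 UMIs would be expected to hold 0.358, 0.355, 0.384 and 0.482 RAB13 UMIs. Yet in 35, 23, 23 and 30 shallow barcodes (16.1%, 20.0%, 1.64% and 7.67%) RAB13 had at least 5 UMIs and 0.5% of the total. These held 89.3%, 89.8%, 57.0% and 79.0% of the 676, 645, 553 and 615 shallow RAB13 UMIs. The share reached 4.81%, 7.46%, 3.68% and 5.06% in single barcodes, and 2 deep barcodes in all, both of shAPC day 3, passed the same line. Near this line, chosen after the values were seen, lay 3, 4, 5 and 6 shallow barcodes. Without all enriched barcodes the RAB13 change was 1.10. RAB13 chose part of these barcodes, and they were left out of the shallow side only. A lower RAB13 level was therefore built into this comparison, and the value is a description.

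RAB13-rich barcodes carried a set of further messages in all 4 libraries. ANP32B, a nuclear acidic phosphoprotein, stood at 5808, 7312, 4372 and 2482 CPM in them, against 404, 594, 223 and 220 CPM in the shallow barcodes outside the enriched groups. KIF1C, a kinesin motor whose message is known from protrusions, stood at 1452, 1387, 686 and 496 CPM against 167, 178, 53 and 43 CPM. EIF5B, a translation initiation factor, MAP1B, a microtubule-associated protein, DYNC1LI2, a dynein subunit, TCEAL4 and HNRNPA3 were also among the 12 genes that separated them most evenly. Several of these were in the 10 highest of the whole shallow side, among called genes of at least 200 CPM with the same direction in all 4 libraries. There ANP32B changed by 2.31 (edgeR adjusted p = 0.0049), TCEAL4 by 2.07 (edgeR adjusted p = 0.0012), MAP1B by 1.97 (edgeR adjusted p = 0.0067) and EIF5B by 1.92 (edgeR adjusted p = 0.002). Each had its largest excess in the day 3 libraries, as RAB13 did. Without all enriched barcodes these changes were 1.10, 1.27, 1.11 and 1.04.

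Messages known from cell protrusions in other cells, a list added after the values were seen, did not move as one. The shallow level over the deep level was 17.3, 29.1, 2.7 and 7.4 for RAB13, 5.7, 9.3, 1.0 and 1.5 for KIF1C, and 5.3, 7.0, 1.0 and 1.7 for TRAK2, an adaptor of mitochondrial transport. It was 2.2, 2.8, 0.8 and 0.9 for DDR2, a collagen receptor. Thus RAB13 alone of these stood well above the deep level in all 4 libraries, and KIF1C, TRAK2 and DDR2 did so at day 3. NET1, at 2.2, 6.5, 1.0 and 1.2 on 2 to 6 UMIs per library, and PKP4, at 2.1, 2.3, 0.9 and 1.2 on 4 to 16 UMIs, had the same order of days, and TRAK2 rested on 13 to 21 UMIs. KANK2 (5 to 34 UMIs), DYNLL1 and CYB5R3 ranged between 0.4 and 2.7.

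Secreted products divided into factors, whose summed level was higher in all 4 libraries, and matrix proteins, whose summed level was lower at day 3 and higher at day 7. Secreted factors (growth factor binding proteins, proteases, their inhibitors and cytokines, with LGALS1 and B2M also listed) took 2.50%, 2.71%, 4.07% and 3.75% of shallow UMIs. Their deep share was 1.59%, 1.87%, 1.60% and 1.39%. TIMP1 and LGALS1 were the most abundant members, so the summed values rest heavily on these. LGALS1, a galectin, was at 8401, 7097, 7201 and 7327 CPM in shallow and 5352, 5760, 5450 and 5404 CPM in deep barcodes. The class log2 ratio was 0.99 ± 0.46 (SD, n = 4 libraries), with 0.65 and 0.54 at day 3 and 1.34 and 1.43 at day 7. At day 3 the median factor, at 0.23 and 0.24, was near the median of all genes (0.28 and 0.17). Of 32 factors tested 21 rose and 4 fell, where 42.6% of all genes rose and 13% fell. With TMM factors 12 rose and 4 fell. TIMP1, an inhibitor of matrix metalloproteinases, was at 6788, 7434, 14218 and 14925 CPM in shallow and 2649, 2731, 2564 and 1973 CPM in deep barcodes (log2 change 2.05, SE 0.25, edgeR adjusted p = 0.00055). IGFBP7, which binds insulin-like growth factors, was at 838, 905, 2599 and 2104 CPM against 358, 510, 508 and 312 CPM (log2 change 1.83, SE 0.30, edgeR adjusted p = 0.0017). Both were above every deep value in all libraries and higher at day 7 than at day 3. Without the enriched barcodes TIMP1 changed by 1.29. Secreted share partly chose those barcodes, so lower values of secreted factors without them were built in. GRN, the progranulin precursor, changed by 1.92 (edgeR adjusted p = 0.0051), LGALS3BP by 1.79 (edgeR adjusted p = 0.0044, and 1.12 without the enriched barcodes), and SAA1, an acute-phase protein, by 1.65 (edgeR adjusted p = 0.0018). The 4 factors that fell were TIMP2 (-0.74), GREM1 (-0.61), STC1 (-0.45) and FSTL1 (-0.42).

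Secreted matrix took 0.880% and 0.635% of shallow UMIs in shScr and shAPC at day 3, below 1.08% and 1.06% of deep UMIs, and 1.36% and 1.74% at day 7, above 0.921% and 1.00%. The log2 ratios were -0.30 (95% counting interval -0.37 to -0.24), -0.74 (-0.84 to -0.64), 0.57 (0.54 to 0.59) and 0.79 (0.76 to 0.83), and their mean of 0.08 ± 0.72 (SD, n = 4 libraries) describes no library. COL1A1, a chain of fibrillar collagen, stood at 1122 and 657 CPM in the shallow barcodes of day 3 against 1456 and 1538 CPM in the deep ones, and at 1691 and 2794 CPM against 909 and 1486 CPM at day 7 (edgeR adjusted p = 0.79 over the 4 libraries). FN1, the fibronectin message, was at 2574, 1370, 2986 and 2780 CPM against 3710, 3306, 3129 and 2811 CPM, lower in all 4 without passing the test (edgeR adjusted p = 0.069). Without the enriched barcodes its change was -0.86. These barcodes were left out of the shallow side only and were partly chosen by matrix share, so a lower value was built into this comparison. Of 28 matrix genes 6 rose and 1 fell, where 42.6% of all genes rose and 13% fell. With TMM factors 3 rose and 3 fell. Those that rose were LUM (1.58), DCN (1.18), TGFBI (1.07), EMILIN1 (0.91), CYR61 (0.72) and EFEMP2 (0.63), the one that fell was FBN2 (-0.57). Lumican and decorin, encoded by LUM and DCN, are small proteoglycans that coat collagen fibrils. Without the MT limit 17 matrix genes rose and none fell. Without the enriched barcodes 2 rose and 7 fell, a shift to lower values that the choice of these barcodes by secreted share also built in. In the shallow barcodes outside the enriched groups the matrix share at day 7 was 0.97% and 0.98%, close to the deep share.

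The messages of the secretory pathway itself followed the day 7 pattern. ER chaperones and processing enzymes took 0.646%, 0.517%, 0.893% and 0.893% of shallow UMIs against 0.533%, 0.521%, 0.505% and 0.452% of deep UMIs, with log2 ratios of 0.28, -0.01, 0.82 and 0.98. Of 28 tested 18 rose and none fell, beside 42.6% and 13% of all genes. With TMM factors 13 rose and 2 fell. PDIA3, a disulphide isomerase, was at 220, 224, 464 and 491 CPM against 109, 133, 97.8 and 93.4 CPM (log2 change 1.72, SE 0.28, edgeR adjusted p = 0.0016), and RPN2, a subunit of the enzyme that adds sugar chains, changed by 1.42. Membrane proteins had ratios of 0.37, 0.09, 0.74 and 0.76, beside medians of all genes of 0.28, 0.17, 0.29 and 0.35. Of 25 tested 14 rose and 2 fell, where 42.6% of all genes rose and 13% fell. CD63, a tetraspanin of late endosomes, rose by 1.17 (edgeR adjusted p = 0.0014), while CD81, another tetraspanin, changed by -0.91 and NT5E, a surface nucleotidase, by -0.54.

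Part of this excess was carried by secreted-rich barcodes, in which secreted matrix and factors made up at least 10% of UMIs. There were 12, 4, 172 and 81 of them among shallow barcodes (5.53%, 3.48%, 12.3% and 20.7%), and 0 among the deep barcodes of every library, a count that allows up to 3 in each. The limit was chosen after the values were seen, and 7, 1, 135 and 30 barcodes lay within 20% of it, so it cuts through a continuous range. The highest share was 23.0%, 26.0%, 27.4% and 27.9%. They held 18.6%, 18.9%, 32.9% and 49.0% of all shallow secreted UMIs, and their ER chaperone share was 2.43%, 2.12%, 2.38% and 2.65%, against 0.58%, 0.48%, 0.70% and 0.56% in the shallow barcodes outside the enriched groups. PDIA3 was at 1548, 1704, 1775 and 1708 CPM in them against 192, 202, 284 and 258 CPM. BSG, APLP2, RPN2, P4HB, PDIA6 and HSPA5 were also among the 12 genes that separated them most evenly, all messages of membrane or ER proteins. The 3 enriched groups hardly met: MALAT1-rich and RAB13-rich shared 1 barcode in all, MALAT1-rich and secreted-rich 3, and RAB13-rich and secreted-rich 2. Without all of them 16 secreted factors rose and 4 fell, at a class ratio of 0.68. Secreted share chose part of these barcodes, left out of the shallow side only, so a lower ratio was built into this comparison.

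The intermediate barcodes showed whether these classes changed evenly with depth. Of 1971 genes tested in them against the deep barcodes, 777 were higher (39.4%) and 388 lower (19.7%) by edgeR's quasi-likelihood test with Benjamini-Hochberg adjustment, with a median log2 ratio of 0.13. These sums share the deep barcodes with the shallow comparison. Ribosomal proteins had ratios of -0.25, -0.06, -0.22 and -0.14, closer to the deep level than the shallow ratios of -0.47, -0.40, -0.55 and -0.62. Secreted matrix was lower in all 4 libraries here (-0.69, -1.41, -0.34 and -1.07), and 20 of 24 matrix genes fell and none rose, so its share did not change in one direction with depth. COL1A1 changed by -0.98 and FN1 by -1.29. The lowest secreted matrix share in every library stood at 5000 to under 10000 UMIs, at 0.64%, 0.32%, 0.70% and 0.35%. ER chaperones were also slightly below the deep level (-0.06, -0.23, -0.10 and -0.43), and 3 of 25 rose and 11 fell. Nuclear long noncoding RNA split between the shRNAs, with 0.90 and 1.07 in the shScr libraries and -1.24 and -0.77 in the shAPC libraries, and 12, 2, 27 and 5 intermediate barcodes were MALAT1-rich. No test of that split was made. RAB13 changed by 2.09 and ANP32B by 1.37 in the intermediate barcodes.

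**Figure D3:**
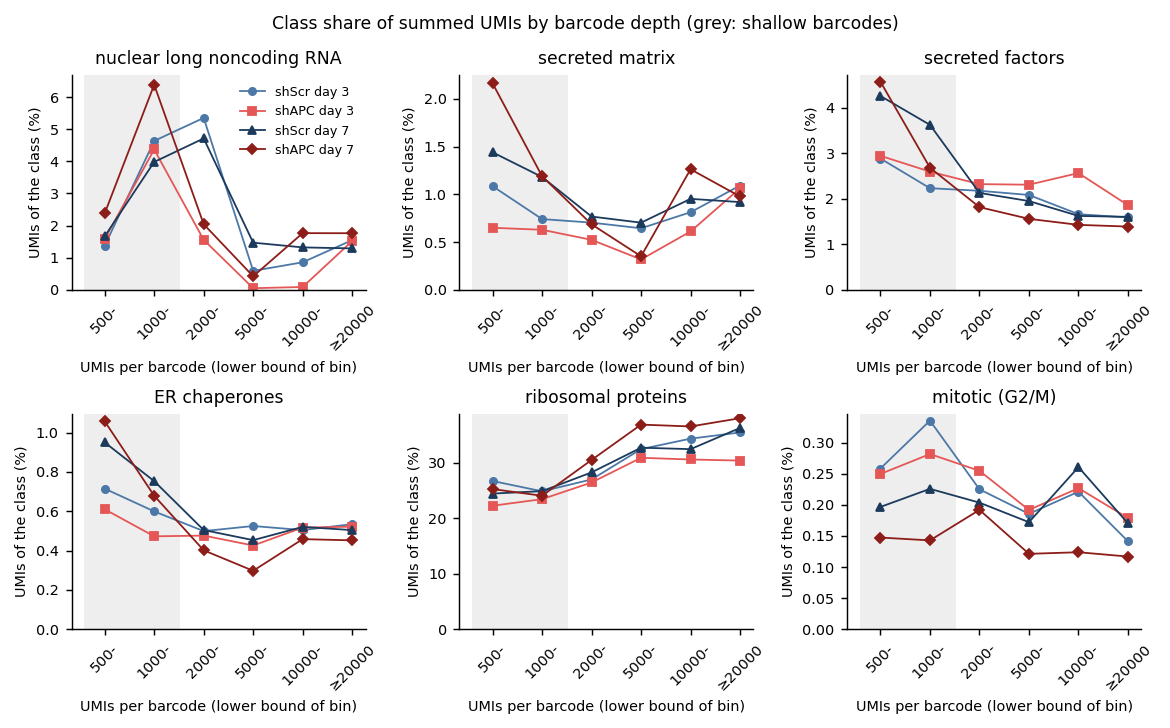
Share of summed UMIs (%) of 6 transcript classes in 6 bins of UMIs per barcode, with 1 line per library and the shallow range in grey. Ribosomal share rises with depth in all 4 libraries, while secreted matrix has its lowest point at 5000 to under 10000 UMIs.

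Mitotic and S phase messages had summed shares above the deep level in all 4 libraries, but the share of mitotic genes called was close to that of all genes. The mitotic list (genes of G2 and mitosis) made up 0.305%, 0.272%, 0.205% and 0.146% of shallow UMIs, against 0.144%, 0.179%, 0.176% and 0.118% of deep UMIs. The class log2 ratio was 0.55 ± 0.39 (SD, n = 4 libraries), with 1.08 and 0.60 at day 3 and 0.22 and 0.31 at day 7, the latter below the median gene of those libraries (0.29 and 0.35). Of 54 mitotic genes 10 were abundant enough to test, 4 rose and none fell, where 42.6% of all genes rose and 13% fell, and with TMM factors 2 rose and 1 fell. JPT1 rose by 1.04 (edgeR adjusted p = 0.0019), TUBB4B, a tubulin, by 1.00 (edgeR adjusted p = 0.0006), CKS2, a partner of cyclin-dependent kinases, by 0.83 (edgeR adjusted p = 0.01) and UBE2C, which marks mitotic proteins for destruction, by 0.57 (edgeR adjusted p = 0.036). TOP2A, the topoisomerase that untangles chromosomes, was at 133, 112, 50 and 12 CPM against 130, 150, 62 and 51 CPM and did not pass (log2 change -0.46, edgeR adjusted p = 0.15). PTTG1, also called securin, rose by 0.91 (edgeR adjusted p = 0.0082). The S phase list had ratios of 0.96, 0.73, 0.46 and 0.49, and 2 of 4 tested members rose, PCNA, the sliding clamp of replication (0.87, edgeR adjusted p = 0.0031), and MRPL36, which encodes a mitochondrial ribosomal protein (0.77, edgeR adjusted p = 0.0031). Since the sums pool barcodes, they do not say how many barcodes came from cycling cells.

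Proteasome, heat shock, glycolysis and tubulin messages were higher in all 4 libraries. Proteasome subunits, which form the protease of ubiquitin-marked proteins, had log2 ratios of 1.10, 0.68, 1.02 and 1.11 and 27 of 28 tested rose (24 with TMM factors) and none fell. PSMB3 was at 362, 385, 354 and 315 CPM against 90, 129, 115 and 71 CPM (log2 change 1.84, SE 0.14, edgeR adjusted p = 0.00019). Heat shock proteins had ratios of 1.03, 0.90, 1.08 and 1.06 and 10 of 11 rose, with HSP90AA1 at 1058, 1274, 1294 and 852 CPM against 341, 404, 512 and 359 CPM (log2 change 1.46, SE 0.12, edgeR adjusted p = 0.00019). For these genes every shallow value lay above every deep value. Glycolysis had ratios of 0.78, 0.64, 0.95 and 0.92 with 10 of 12 higher, among them PKM, the pyruvate kinase (1.00, edgeR adjusted p = 0.00026), and tubulins had 0.84, 0.51, 0.62 and 0.66 with 7 of 7 higher. The proteasome rise did not rest on the enriched barcodes, since 29 subunits rose and none fell without them.

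Actin and myosin messages were mixed, whereas most nuclear-encoded respiratory messages were higher. The actin and myosin list also holds VIM, an intermediate filament gene. Of its 30 tested genes 16 rose and 5 fell, where 42.6% of all genes rose and 13% fell. TMM factors turned this balance to 12 and 12. The class ratio of 0.35, 0.09, 0.21 and 0.23 lay at or below the median gene except in shScr day 3. ACTB, the main cytoskeletal actin, rose by 1.05 (edgeR adjusted p = 0.00019), whereas TMSB10, which binds actin monomers, changed by -0.49 (edgeR adjusted p = 0.0012) and MYH9, a myosin heavy chain, by -0.58 (edgeR adjusted p = 0.018). Of 74 nuclear-encoded respiratory chain genes 51 rose and 2 fell, at class ratios of 0.43, 0.19, 0.39 and 0.54. Those that fell were UQCRH (-0.41) and ATP5F1E (-0.32), and ATP5F1E lost its call without the enriched barcodes (-0.18, edgeR adjusted p = 0.12). The MT-encoded messages of the same complexes had ratios of -0.76, -0.76, -0.69 and -0.75, and the limit on their share was part of the selection. Splicing factors had 15 of 32 higher, near the 42.6% of all genes, and 1 lower, with class ratios of 0.63 and 0.86 at day 3 and 0.23 and 0.42 at day 7. Immediate early genes, whose messages decay fast, had a class ratio of -0.14, -0.13, 0.03 and -0.08. Of 12 tested 3 rose and 1 fell, beside 42.6% and 13% of all genes. With TMM factors 1 rose and 3 fell. Interferon-stimulated genes had ratios of 0.51, 0.41, 0.74 and 0.67. Of 9 tested 6 rose and none fell, beside 42.6% and 13% of all genes. ISG15 was at 522, 1722, 602 and 349 CPM in shallow and 263, 1185, 291 and 134 CPM in deep barcodes. Its log2 change was 0.99 (SE 0.15, edgeR adjusted p = 0.0012). KRT7 rose by 0.96 (edgeR adjusted p = 0.0068).

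**Figure D4:**
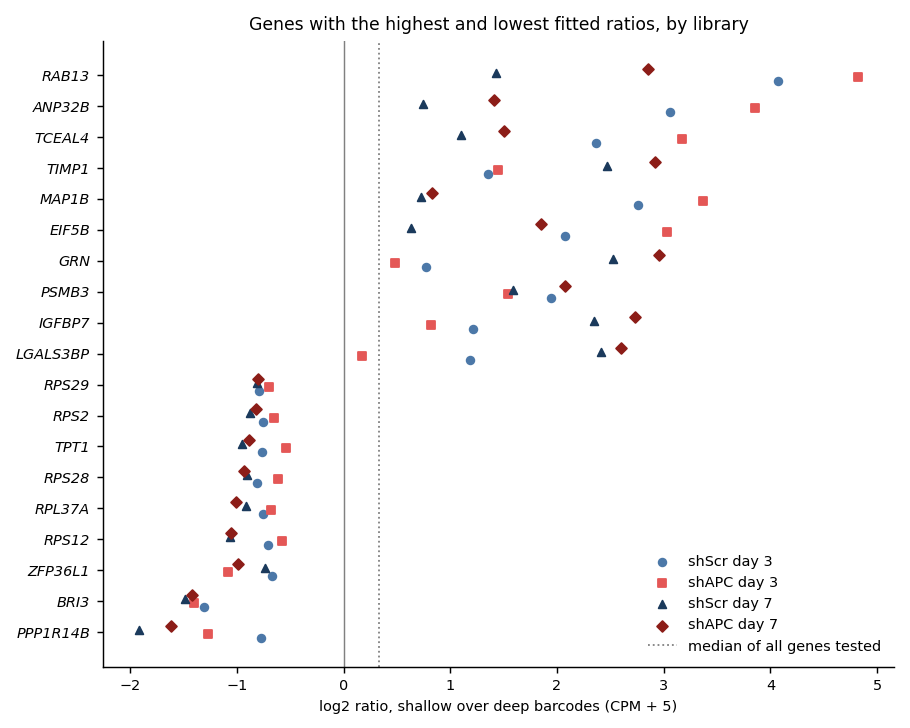
Log2 ratio (shallow over deep, CPM + 5) of the genes named by the highest and lowest fitted ratios among called genes of at least 200 CPM, with 1 symbol per library. The dotted line is the median of all genes tested. RAB13 spans 1.43 to 4.82, while the ribosomal genes at the bottom lie close together.

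Single libraries stood apart for a few genes, which is a description since a group has 1 library. CTGF, a matricellular target of YAP, was lower in the shallow barcodes of shAPC day 3 (40 against 124 CPM, on 5 shallow UMIs) and higher or near equal in the other 3 libraries, with log2 ratios of 0.32, -1.52, 1.14 and 1.30. HNRNPA3, an RNA-binding protein, stood out upward there, with 1274 against 171 CPM. In that library 121 of its 159 shallow UMIs lay in RAB13-rich barcodes. Its fitted log2 change over the libraries was 1.45, and 0.59 without the enriched barcodes. SAA1 was least raised in shScr day 3, at 179 against 120 CPM, with log2 ratios of 0.55, 1.97, 2.33 and 1.40. CCND1, cyclin D1, was at 1241, 1714, 542 and 1126 CPM against 386, 448, 438 and 442 CPM, lowest in the shallow barcodes of shScr day 7. Transcript length was related to the ratio only weakly: the median log2 ratio was 0.39, 0.48, 0.35 and 0.12 from the shortest to the longest of 4 equal groups of transcripts, with Spearman's rho of -0.141 across genes that share the same 8 sums.

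The contrast between the hairpins was in part visible in the shallow barcodes too. Across 542 genes of at least 200 CPM, the log2 ratio of shAPC to shScr in shallow barcodes correlated with that in deep barcodes. Pearson's r was 0.651 at day 3 and 0.792 at day 7 between sides of the same libraries, a description without a test. Over all 2169 genes tested it was 0.536 and 0.722. IFI6, an interferon-stimulated gene, had a log2 ratio of 3.12 in shallow and 3.21 in deep barcodes at day 3. The interferon list had 1.53 (95% counting interval 1.39 to 1.68) in shallow and 1.64 in deep barcodes at day 3, and -0.81 and -0.74 at day 7. Some lists differed between the sides. Secreted matrix had -0.47 in shallow and -0.03 in deep barcodes at day 3, and 0.35 and 0.12 at day 7, while secreted factors were closer, at 0.12 and 0.23 and at -0.12 and -0.20. At day 3 the proteasome list had -0.10 in shallow and 0.32 in deep barcodes, the mitotic list -0.17 and 0.32, and the nuclear-encoded respiratory list -0.10 and 0.13. SAA1 had -3.08 and -2.15 at day 7, and at day 3, on 39 and 23 shallow UMIs, 0.04 against -1.37. With 1 library per group none of these contrasts has a replicate check.

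**Figure D5:**
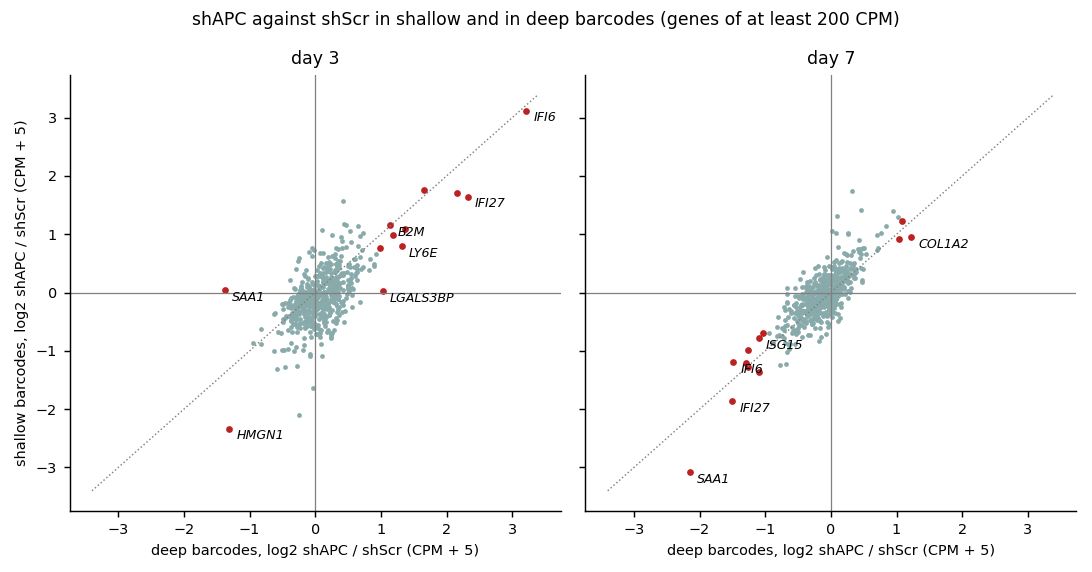
Log2 ratio of shAPC to shScr (CPM + 5) in shallow barcodes against that in deep barcodes, at day 3 and day 7; each point is a gene of at least 200 CPM, red points are the genes with the largest ratios and the dotted line marks equality. At day 3 IFI6 lies near the line, at 3.12 and 3.21, while IFI27 (1.65 and 2.32) and ISG15 (1.71 and 2.15) lie below it.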

How the data were processed

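UMI counts per gene and barcode for 4 libraries were used as the authors deposited them, as filtered matrices with 33538 genes and 1 library per group. Per the file headers they came from Cell Ranger 3.0.2 for both shScr and 3.0.0 for both shAPC libraries, so version and hairpin cannot be told apart. Reads were aligned to hg38. The sources differ on the vector (retroviral or lentiviral) and on the kit version. The authors' later filtering and imputation are not part of these counts.

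Barcodes were filtered as described above, and UMIs were summed per library and side into 8 sums. Genes with a mean of at least 50 CPM, without MT- genes, were tested with edgeR's quasi-likelihood test (edgeR 4.0.16, limma 3.58.1, R 4.3.3), with library as a block, total UMIs as offsets and Benjamini-Hochberg adjustment at 0.05. SE is the fitted log2 change divided by the root of F. Log2 ratios of single genes used a pseudocount of 5 CPM. Class ratios carry exact 95% (Clopper-Pearson) counting intervals. Python 3.11.15, numpy 2.4.6, scipy 1.17.1, pandas 2.3.3 and matplotlib 3.10.9 were used, and the test was tested on simulated data. Alternatives were TMM factors, DESeq2 1.42.0 size factors and Wald test, other CPM minimums, depth ranges and MT limits, no block and leaving out each library. Leaving out shared or enriched barcodes was chosen after seeing the data. Shared barcodes were left out of both sides, and enriched barcodes of the shallow side only.

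Named were the 4 most abundant members of each list, the 10 highest and 10 lowest called genes of at least 200 CPM with the same direction in all libraries, the 3 genes farthest above and below the other libraries in each library, and APC, CDK4, TERT, CCDC85B, PTTG1 and AXIN2. Other genes were named after their values were seen. Some genes that met these rules are not reported here. Members and lists were chosen with earlier results of these data known. Companion genes of enriched barcodes had at least 3 UMIs in each library and were ranked by their lowest log2 ratio over the libraries against the remaining shallow barcodes, with a pseudocount of 50 CPM. Lengths came from GENCODE 44. A class of genes with signal peptides was planned but not analysed here. No doublet caller was run, and RNA free in the droplets was not estimated.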

Additional observations from a re-analysis of the deposited data

Results flagged for a closer look

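Secreted matrix moved in opposite directions at the 2 time points. Its summed log2 ratio of shallow to deep barcodes was -0.30 in shScr day 3 and -0.74 in shAPC day 3, and 0.57 in shScr day 7 and 0.79 in shAPC day 7. The mesenchymal marker list, which shares matrix genes with it, did the same, at -0.18 (95% counting interval -0.24 to -0.12) and -0.59 (-0.69 to -0.50) at day 3 and 0.31 (0.28 to 0.34) and 0.26 (0.22 to 0.31) at day 7. The difference between days was not tested. Secreted-rich barcodes moved with it, at 5.53% and 3.48% of shallow barcodes at day 3 and 12.3% and 20.7% at day 7, and their part in the difference was not tested. The share of barcodes in the shallow depth range that the MT limit removed was 43.9% and 45.2% at day 3 and 20.7% and 35.6% at day 7.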

How the results depend on the processing

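Counts of genes higher and lower in shallow barcodes (924 and 281) became 553 and 575 with TMM factors, 566 and 573 with DESeq2 size factors, and 615 and 534 with totals that left out MT and ribosomal protein genes. They were 1469 and 433 at a minimum of 20 CPM, 254 and 124 at 200 CPM, 1672 higher with no minimum and 149 lower with no library block. Leaving out each library gave 717 to 935 higher and 193 to 277 lower, and in intermediate barcodes 620 were lower with TMM factors (650 to 749 higher and 302 to 380 lower without each library). The nuclear class ratio of 1.10 was 0.18 at 500 to under 1000 UMIs, 1.66 at 1000 to under 2000, 0.73 without the MT limit, -1.16 without the enriched barcodes, 0.79, 0.80 and 0.84 under the 3 other scalings and 0.83 with every barcode weighted alike. The ribosomal ratio of -0.51 was -0.64 without the MT limit, -0.40 without the enriched barcodes and -0.82, -0.81 and -0.77 under the scalings. The actin ratio of 0.22 turned to -0.088, -0.083 and -0.037 under the scalings, and the immediate early ratio of -0.08 to 0.016 without the enriched barcodes. MALAT1 turned to -0.92 without them, where their selection by MALAT1 lowers it. MEG3 turned to -1.54 without them and -0.53 at 500 to under 1000 UMIs. Without each library the mitotic ratio was 0.38 to 0.66, the nuclear 1.06 to 1.18, the ribosomal -0.55 to -0.47, secreted factors 0.84 to 1.14 and secreted matrix -0.16 to 0.35. The causes were not tested. In all, 269 alternative class ratios moved by less than 1 SD. Among them 7 of secreted matrix and 3 of the mesenchymal list turned sign near 0. Leaving out 1 of 4 libraries cannot move the mean by 1 SD. The 22 ratios for each left-out library were therefore bound to be among the 269. Another 22 came from dropping the minimum of 200 genes per barcode, which left the counts at 924 and 281. A further 56 ratios moved more, and 5 moved more and turned sign. Of the single genes 1506 alternatives kept direction and call, 125 lost the call and 3 turned.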
